A study of Homo sapiens with 8 samples.

Results

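The enzymes that make, salvage and remove the building blocks of DNA were followed as 9 genes: RRM1, RRM2, RRM2B, TYMS, TK1, DCK, DTYMK, DUT and SAMHD1. They were taken by gene symbol, and each matched 1 of the 38148 genes of the table. All 9 were among the 14219 genes that averaged 1 RPM or more (RPM, reads on a gene scaled to library size) and were tested. The cells were HT29, an established human colorectal cancer line, for which the labels and the study's methods give different media. They were left untreated or exposed for 24 h to 1 µM selumetinib, an inhibitor of MEK, the kinase upstream of ERK. All cells, untreated ones included, were fixed with glyoxal, permeabilized with methanol, stained for cyclin B1 (CCNB1), a protein that builds up in G2, and separated by flow sorting before poly(A) mRNA-seq. This gave a CCNB1-negative and a CCNB1-positive fraction of untreated and of selumetinib-treated cells, or 4 groups with 2 libraries in each. CCNB1-negative cells are a mixture of cell cycle stages.

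DNA synthesis needs deoxynucleoside triphosphates, which cells hold in small amounts and make as they are used. Ribonucleotide reductase converts ribonucleoside diphosphates to deoxyribonucleoside diphosphates and is built from the large subunit RRM1 with either RRM2, the small subunit of dividing cells, or RRM2B, a p53-inducible small subunit that also serves non-dividing cells. Thymidylate synthase (TYMS) makes dTMP from dUMP, dUTPase (DUT) supplies that dUMP and keeps dUTP low, and thymidylate kinase (DTYMK) phosphorylates dTMP. Thymidine kinase 1 (TK1) and deoxycytidine kinase (DCK) salvage nucleosides, and SAMHD1 hydrolyses dNTPs. Several of these genes are known as E2F-regulated genes whose transcripts accumulate towards S phase.

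The labels contradict each other, and this bears on every direction given here. For every library the title gives the other treatment and the other fraction than the short description, which is also the column name in the table. The descriptions were followed. If the titles were right, each fraction's response would belong to the other fraction, with rises read as falls. The contrast of the fractions in untreated cells would likewise become that in treated cells, again reversed, and the difference between responses would stay as given. Under the descriptions, CCNB1 itself was higher in the CCNB1-positive fraction by 2.09 ± 0.21 (log2, SE) in untreated and by 5.08 ± 0.21 in treated cells. Under the titles its mRNA would be lower in the positive fraction. DUSP6, a feedback gene of ERK signalling, was lower with selumetinib in both fractions, by -1.75 ± 0.20 in the negative and -1.06 ± 0.20 in the positive one, and under the titles it would be higher.

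On GRCh38, RRM1 (ENSG00000167325) spans 4094707 to 4138932 on the forward strand of chromosome 11, RRM2 (ENSG00000171848) 10120698 to 10211725 on the forward strand of chromosome 2, and RRM2B (ENSG00000048392) 102204502 to 102239118 on the reverse strand of chromosome 8. TYMS (ENSG00000176890) spans 657653 to 673578 on the forward strand of chromosome 18, and TK1 (ENSG00000167900) 78174091 to 78187233 on the reverse strand of chromosome 17. DTYMK (ENSG00000168393) spans 241675747 to 241686944 on the reverse strand of chromosome 2, DCK (ENSG00000156136) 70992538 to 71030914 on the forward strand of chromosome 4, and DUT (ENSG00000128951) 48331011 to 48343373 on the forward strand of chromosome 15. SAMHD1 (ENSG00000101347) spans 36889773 to 36951901 on the reverse strand of chromosome 20.

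The values are log2 of the reads on a gene after each library was scaled to the largest one, and are called log2 values here. Reads on genes numbered between 12696860 and 23916160 per library, and replicates differed by more than sampling noise in all 4 groups. Mitochondrial transcripts held 4.44% to 7.8% of reads in the 4 untreated and 11.92% to 14.79% in the 4 treated libraries, and MALAT1, a nuclear RNA, held 0.3% to 0.39% against 2.01% to 4.42%. Their part in the results was not tested, but a scaling without them is given where it changes a call. All 11 colon epithelium markers averaged 1 RPM or more over the 8 libraries. CDX1 was the lowest, with a mean log2 value of 4.06 in untreated CCNB1-positive cells, where 1 RPM is 4.58. Of 8 markers of blood, stromal and endothelial cells only COL1A1, with at most 107 reads, passed 1 RPM. The other 7 had reads in some libraries, and the list summed to 1.62 to 2.13 RPM in untreated and 3.62 to 7.21 RPM in treated libraries. Nothing in the labels says that the 2 libraries of a group came from separate cultures, so the p-values measure the spread between these libraries, which may be technical.

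The promoters of 5 members are shown so that those of 4 genes that fell with selumetinib can be set beside that of SAMHD1, which did not pass the test. Each line holds the 250 bases before the RefSeq start nearest to the Ensembl canonical start (GRCh38.p14), 5′ to 3′ on the gene's strand. These are chr2:10122489-10122738 (forward strand) for RRM2, chr17:78187053-78187302 (reverse strand) for TK1, chr2:241686816-241687065 (reverse strand) for DTYMK, chr18:657403-657652 (forward strand) for TYMS and chr20:36951709-36951958 (reverse strand) for SAMHD1. Capitals mark the letters searched for, and ATTGG in TK1 and GCGGGAAA in TYMS are matches on the other strand.
RRM2: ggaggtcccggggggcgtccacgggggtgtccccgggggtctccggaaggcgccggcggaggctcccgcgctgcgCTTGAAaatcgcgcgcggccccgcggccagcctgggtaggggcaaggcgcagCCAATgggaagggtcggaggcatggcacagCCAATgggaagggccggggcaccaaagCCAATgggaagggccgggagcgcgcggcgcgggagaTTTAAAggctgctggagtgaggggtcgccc
TK1: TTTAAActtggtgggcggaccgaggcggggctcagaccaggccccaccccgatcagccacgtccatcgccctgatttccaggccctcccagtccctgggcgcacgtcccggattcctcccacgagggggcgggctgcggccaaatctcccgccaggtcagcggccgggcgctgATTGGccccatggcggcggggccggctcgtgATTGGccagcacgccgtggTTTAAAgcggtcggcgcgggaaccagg
DTYMK: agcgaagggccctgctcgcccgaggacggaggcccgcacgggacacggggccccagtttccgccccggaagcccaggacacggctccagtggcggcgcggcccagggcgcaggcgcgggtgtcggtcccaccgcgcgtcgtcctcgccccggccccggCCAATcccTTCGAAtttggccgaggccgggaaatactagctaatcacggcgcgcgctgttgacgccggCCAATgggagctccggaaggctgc
TYMS: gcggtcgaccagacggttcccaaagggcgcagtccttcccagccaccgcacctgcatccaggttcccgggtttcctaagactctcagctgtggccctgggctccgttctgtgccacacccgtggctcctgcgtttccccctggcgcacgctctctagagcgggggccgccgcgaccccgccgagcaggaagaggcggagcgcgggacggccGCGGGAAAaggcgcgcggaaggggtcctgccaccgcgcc
SAMHD1: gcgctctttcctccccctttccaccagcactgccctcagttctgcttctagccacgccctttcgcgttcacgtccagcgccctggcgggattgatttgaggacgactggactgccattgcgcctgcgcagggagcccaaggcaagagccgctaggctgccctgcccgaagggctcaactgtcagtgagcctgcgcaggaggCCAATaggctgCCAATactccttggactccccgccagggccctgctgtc

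Motifs were searched on both strands of the 8 member promoters present in the sequence table. They were the CCAAT box (CCAAT), the E2F site (TTTCCCGC, TTTCGCGC, TTTGCCGC or TTTGGCGC) and the cell cycle genes homology region, CHR (TTTGAA, with TTCGAA as a variant form, TTTAAA as another and CTTGAA as the last). The letters were chosen with these promoters in view. The CCAAT box stood in 5 of 8 member promoters and in 32.0% of 34943 promoters of the same length. RRM2 held 3 copies, at -123, -93 and -66 from the start, TK1 held copies at -77 and -46, DTYMK at -92 and -24, SAMHD1 at -49 and -38, and RRM1 at -28. The CHR letters stood in 4 of 8, against 29.1% of all promoters: in RRM2 at -175 and -30, in TK1 at -250 and -27, in DTYMK at -84 and in RRM1 at -199. TTTAAA near -30 also resembles a TATA element. Positions in RRM1 count from a RefSeq start 114 bases from the Ensembl canonical start, whereas the other starts used match theirs. The E2F letters stood in 1 of 8, TYMS at -39, against 2.77% of all promoters. The windows of DCK and DUT held none of these letters. SAMHD1, the 1 searched member not called in any comparison, held CCAAT copies and neither of the other motifs. Nothing is drawn from these matches about the responses of the genes.

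**Figure D1:**
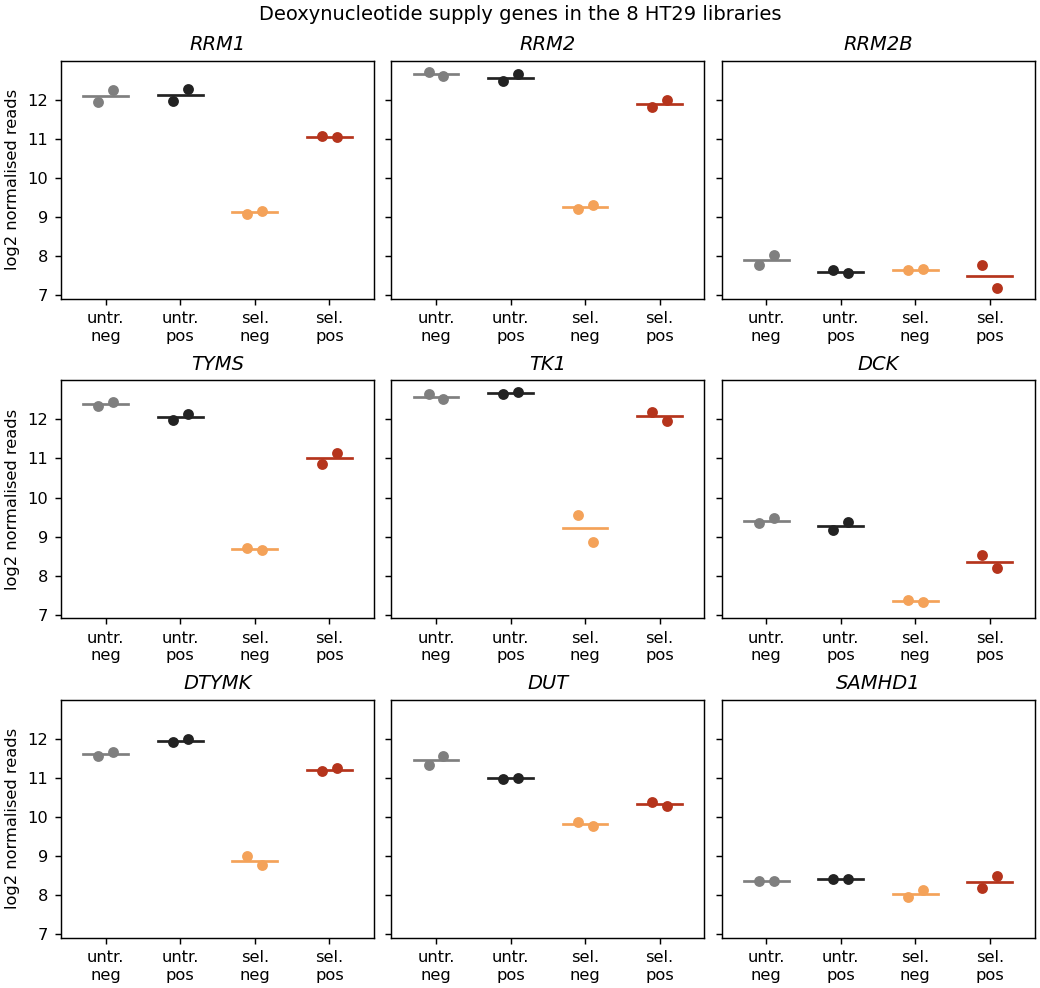
Log2 value of each gene in each of the 8 libraries (points) with the group mean (line). untr., untreated; sel., selumetinib; neg, CCNB1-negative; pos, CCNB1-positive. RRM1, RRM2, TYMS, TK1, DCK, DTYMK and DUT were lowest in the treated CCNB1-negative libraries, while RRM2B and SAMHD1 varied by 0.83 and 0.55 over all 8 libraries.

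Between genes, levels were compared per length, as RPKM (RPM divided by transcript length in kilobases), with the Ensembl canonical transcript as the length. In untreated CCNB1-negative cells TK1 was highest at 179 ± 13.0 RPKM (SD, n = 2), followed by TYMS at 140 ± 4.99, DTYMK at 124 ± 4.13 and RRM2 at 83.6 ± 5.01. RRM1 at 59.1 ± 7.99 and DUT at 54.7 ± 6.24 did not differ beyond their spread. DCK was at 11.3 ± 0.671, SAMHD1 at 2.93 ± 0.0240 and RRM2B at 2.09 ± 0.248. In untreated CCNB1-positive cells the order was the same except that DTYMK, at 157 ± 5.20, stood above TYMS, at 110 ± 6.95.

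Selumetinib changed this order in CCNB1-negative cells. DTYMK at 20.8 ± 2.11, TK1 at 19.5 ± 6.29 and DUT at 19.5 ± 0.695 RPKM did not differ beyond their spread, nor did RRM2 at 8.70 ± 0.481 and RRM1 at 8.16 ± 0.474, and TYMS stood between these groups at 11.8 ± 0.0471. DCK was at 3.00 ± 0.0695, SAMHD1 at 2.59 ± 0.268 and RRM2B at 1.94 ± 0.0550. In treated CCNB1-positive cells TK1 was again highest at 136 ± 14.6 RPKM, above DTYMK at 101 ± 3.98, TYMS at 57.1 ± 8.43 and RRM2 at 52.5 ± 5.07. The last pair did not differ beyond their spread. RRM1 followed at 30.5 ± 0.0933, DUT at 26.8 ± 1.15, DCK at 5.90 ± 0.865, SAMHD1 at 3.12 ± 0.501 and RRM2B at 1.71 ± 0.470. The choice of length matters for RRM2, whose merged exons reach 9.15 kb against 3.26 kb for its canonical transcript. It also matters for DTYMK, at 2.4 against 1.05 kb. Over merged exons RRM2 stood below RRM1 in all 4 groups, at 29.7 ± 1.78 against 43.9 ± 5.93 RPKM in untreated CCNB1-negative cells. By that length RRM2B stood above SAMHD1, though in treated CCNB1-positive cells (1.52 ± 0.416 and 1.34 ± 0.215 RPKM) not beyond their spread. TYMS, at 73.6 ± 4.63, and DTYMK, at 68.8 ± 2.28, then did not differ beyond their spread in untreated CCNB1-positive cells. In treated CCNB1-negative cells DTYMK, at 9.09 ± 0.925, stood below DUT, at 11.4 ± 0.405.

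**Figure D2:**
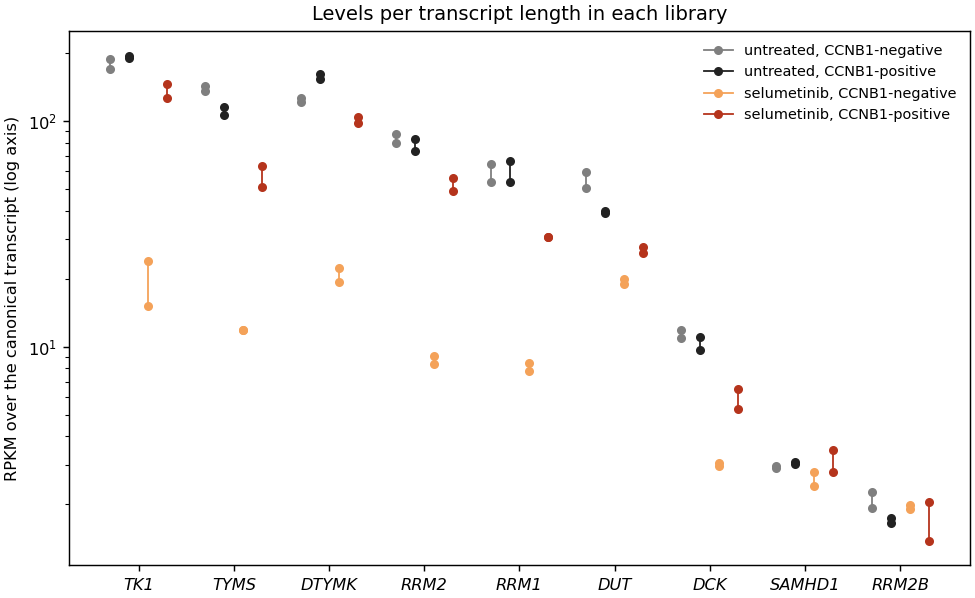
RPKM over the canonical transcript (log axis) of each gene in each library. Points are libraries, lines join the replicates of a group, and genes are ordered by their mean in untreated CCNB1-negative cells. In treated CCNB1-negative cells the leading genes, DTYMK, TK1 and DUT, lay near 20 RPKM.

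In CCNB1-negative cells, 7 of the 9 genes fell with selumetinib, and RRM2B and SAMHD1 did not pass the test (limma, Benjamini-Hochberg adjusted p under 0.05 over 14219 genes). Falls were also called for 35.8% of all genes tested. The median log2 difference over the 9 members was -2.72, against 0.05 over all genes tested. TYMS had the steepest fall, to 7.66% of its untreated level, and DUT the shallowest of the 7, to 32.5%. In bulk samples, fewer cells with a transcript and less transcript per cell cannot be told apart.

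The ribonucleotide reductase subunits parted. RRM1 was at log2 values of 11.96 and 12.26 in untreated and 9.08 and 9.17 in treated CCNB1-negative cells. This was a difference of -2.99 ± 0.16 (SE; adjusted p = 3.8e-09), to 12.6% of the untreated level. RRM2 was at 12.72 and 12.62 untreated and at 9.22 and 9.31 treated, a difference of -3.40 ± 0.14 (adjusted p = 8.8e-10), to 9.46%. RRM2B stood at 7.77 and 8.03 untreated and at 7.64 and 7.67 treated. Its difference of -0.24 ± 0.23 did not pass (adjusted p = 0.35), and the lower end of its 95% interval, -0.74 to 0.25, lay above the upper ends for RRM1 (-2.65) and RRM2 (-3.09). Both treated libraries lay below both untreated ones for all 3 subunits, RRM2B included. With 2 libraries per group such separation says little by itself, here and below, and its share over all genes was not counted.

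For thymidylate synthesis, TYMS was at 12.35 and 12.44 in untreated and at 8.71 and 8.67 in treated CCNB1-negative cells, a difference of -3.71 ± 0.15 (adjusted p = 7.2e-10). DTYMK, the kinase that both the TYMS and TK1 routes feed, went from 11.57 and 11.65 to 9.0 and 8.77, by -2.72 ± 0.14 (adjusted p = 3.6e-09), to 15.1% of its untreated level. DUT, upstream of TYMS, went from 11.32 and 11.57 to 9.88 and 9.78, by -1.62 ± 0.14 (adjusted p = 2.7e-07). No treated library overlapped an untreated one for these genes. The 95% interval of the DUT difference, -1.93 to -1.31, did not overlap that of TYMS, -4.02 to -3.39.

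The salvage kinases fell to different depths. TK1, the cytosolic thymidine kinase, was at 12.65 and 12.51 untreated and at 9.56 and 8.86 treated, a difference of -3.37 ± 0.20 (adjusted p = 7.4e-09), to 9.66% of its untreated level. The treated TK1 values were the most spread of any group of this gene, yet both lay below every other library. DCK, which phosphorylates deoxycytidine and also purine deoxynucleosides, was at 9.34 and 9.48 untreated and at 7.39 and 7.32 treated, a difference of -2.05 ± 0.18 (adjusted p = 2.3e-07), to 24.1%. The intervals of the 2 kinases, -3.79 to -2.95 for TK1 and -2.44 to -1.67 for DCK, did not overlap. SAMHD1, the enzyme that degrades dNTPs, was at 8.35 in both untreated and at 7.94 and 8.12 in treated libraries. Its difference of -0.32 ± 0.18 did not pass (adjusted p = 0.13, 95% interval -0.72 to 0.07).

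The result for RRM2B and SAMHD1 depended on the scaling. Quantile normalization gave -0.65 for RRM2B (adjusted p = 0.026) and -0.57 for SAMHD1 (adjusted p = 0.020), while scaling to nuclear genes without MALAT1 turned RRM2B to 0.07 (adjusted p = 0.79). The other 7 falls were called under every setting tried.

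In CCNB1-positive cells the same 7 genes were called lower with selumetinib, but by less. The background was 27.3% of all genes tested, and the median difference was -0.68 over the 9 members against 0.17 over all genes. The levels left were between 47.8% and 65.6% of untreated for these 7. RRM1 went from 11.97 and 12.29 to 11.07 and 11.06, by -1.07 ± 0.16 (adjusted p = 5.4e-05), and TYMS from 11.99 and 12.13 to 10.86 and 11.14, by -1.06 ± 0.15 (adjusted p = 3.1e-05). These were the members with the steepest falls in this fraction, to 47.8% and 47.9%. DCK went from 9.18 and 9.37 to 8.52 and 8.20, by -0.92 ± 0.18 (adjusted p = 5.4e-04), to 53.0%.

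DTYMK went from 11.91 and 11.99 to 11.18 and 11.24, by -0.74 ± 0.14 (adjusted p = 4.4e-04), and DUT from 10.97 and 11.00 to 10.38 and 10.27, by -0.66 ± 0.14 (adjusted p = 0.0012). RRM2 went from 12.48 and 12.67 to 11.81 and 11.99, by -0.68 ± 0.14 (adjusted p = 9.8e-04), to 62.4%. TK1 went from 12.66 and 12.71 to 12.20 and 11.96, by -0.61 ± 0.20 (adjusted p = 0.014), to 65.6%. Treated and untreated libraries did not overlap for any of these 7 genes, and the share of all genes without overlap was not counted.

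The calls of RRM2 and TK1 in CCNB1-positive cells were the least secure. With quantile normalization RRM2 was at -0.35 (adjusted p = 0.051) and TK1 at -0.24 (adjusted p = 0.31). With scaling to nuclear genes without MALAT1, TK1 was at -0.36 (adjusted p = 0.13). The TK1 call was also lost without untreated CCNB1-positive replicate 2, at -0.58 (adjusted p = 0.063), and without treated CCNB1-positive replicate 2, at -0.49 (adjusted p = 0.10).

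RRM2B was at 7.64 and 7.57 untreated and at 7.78 and 7.19 treated in this fraction, a difference of -0.12 ± 0.23 (adjusted p = 0.66, 95% interval -0.61 to 0.37). SAMHD1 was at 8.42 and 8.41 untreated and at 8.18 and 8.49 treated, a difference of -0.08 ± 0.18 (adjusted p = 0.71, 95% interval -0.48 to 0.32). Treated and untreated libraries overlapped for both. The sign of both turned under scaling to nuclear genes without MALAT1, to 0.13 and 0.17, and RRM2B was called lower, at -0.80 (adjusted p = 0.012), with quantile normalization.

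**Figure D3:**
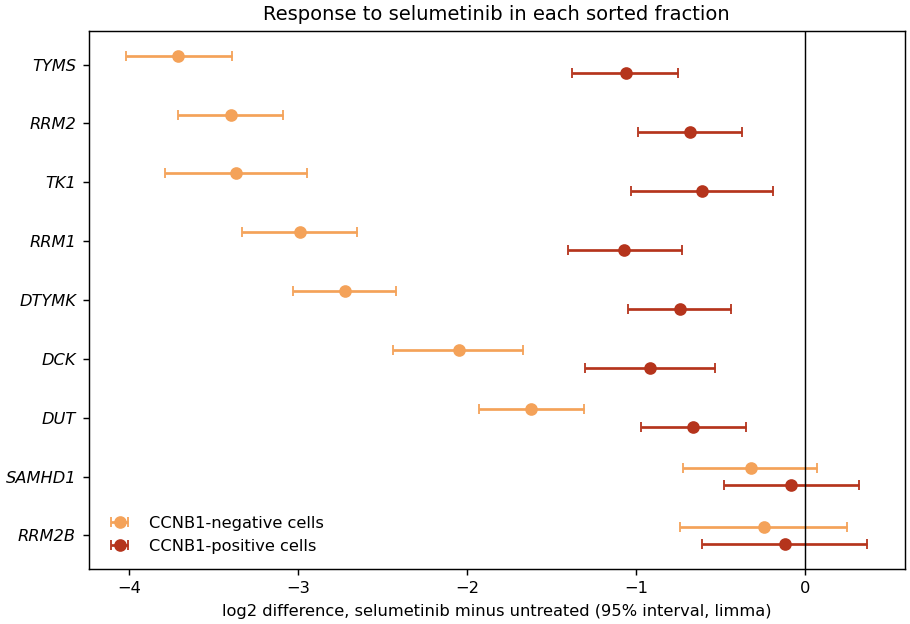
Log2 difference, selumetinib minus untreated, of each gene in CCNB1-negative and CCNB1-positive cells, with 95% intervals from limma (2 libraries per group). TYMS lay at -3.71 and -1.06, DUT at -1.62 and -0.66, and the intervals of SAMHD1 and RRM2B included 0 in both fractions.

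The responses of the fractions were compared by the interaction, response in CCNB1-positive minus response in CCNB1-negative cells. It was positive and called for the 7 genes that fell, against 4.99% of all genes tested, with a median of 1.92 over the 9 members and 0.11 over all genes. It was largest for TK1 at 2.76 ± 0.28 (adjusted p = 1.9e-05), RRM2 at 2.72 ± 0.20 (adjusted p = 4.1e-06) and TYMS at 2.64 ± 0.21 (adjusted p = 4.4e-06). DTYMK followed at 1.98 ± 0.20 (adjusted p = 2.1e-05) and RRM1 at 1.92 ± 0.22 (adjusted p = 6.1e-05). These 5 calls held under every setting tried.

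The smaller interactions were those of DCK, 1.14 ± 0.25 (adjusted p = 0.016), and DUT, 0.96 ± 0.20 (adjusted p = 0.011). Leaving out untreated CCNB1-negative replicate 2, untreated CCNB1-positive replicate 1 or treated CCNB1-positive replicate 1 ended both calls. DCK was then at 1.07, 1.04 and 0.98 (adjusted p = 0.082, 0.081 and 0.091), and DUT at 0.84, 0.94 and 0.91 (adjusted p = 0.076, 0.058 and 0.059). RRM2B, at 0.12 ± 0.32 (95% interval -0.57 to 0.82), and SAMHD1, at 0.24 ± 0.26 (95% interval -0.32 to 0.80), did not pass.

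Cell cycle markers also differed between the groups. Between treated fractions CDC6, CDT1 and E2F1 were called higher in CCNB1-positive cells (1.49, 1.88 and 1.10). CCNE1 (-0.26) and CCNE2 (0.32) were not called there. Of 5 G1/S genes (CCNE1, CCNE2, CDC6, CDT1 and E2F1), the summed level was 409 to 412 RPM in untreated CCNB1-negative and 35.1 to 41.0 RPM in treated CCNB1-negative libraries. It was 141 to 154 RPM in untreated and 89.0 to 97.2 RPM in treated CCNB1-positive libraries. Of 7 G2/M genes (CCNB1, CCNB2, CDC20, PLK1, AURKA, CENPF and TOP2A), it was 836 to 933 RPM in untreated and 99.9 to 132 RPM in treated CCNB1-negative libraries, and 3730 to 4110 against 2940 to 3060 RPM in CCNB1-positive libraries. TOP2A, the highest of these 7 in all 4 groups, was not called with selumetinib in CCNB1-positive cells (0.12, limma adjusted p = 0.62). Each of the others was called lower there, between -1.36 for PLK1 and -0.62 for CENPF. All 12 markers had reads in every library, and their part in the results was not tested.

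Within untreated cells, the fractions were set side by side to see whether these genes differ with CCNB1. None of the 9 passed the test in limma without pairing of the fractions, against 2.87% of all genes called in either direction. At an unadjusted p under 0.05, 3 members differed, and the share of all genes at that level was not counted. DUT was at 11.32 and 11.57 in CCNB1-negative and at 10.97 and 11.00 in CCNB1-positive cells, a difference of -0.46 ± 0.14 (adjusted p = 0.12). TYMS differed by -0.34 ± 0.15 (adjusted p = 0.33) and DTYMK by 0.35 ± 0.14 (adjusted p = 0.28), and neither gene's fractions overlapped. limma-voom on recovered reads also called 0 members, with 2 at an unadjusted p under 0.05, DTYMK and DUT.

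With the pair of fractions from 1 treatment and replicate number as a block, all 3 were called: DUT at an adjusted p of 0.0034, DTYMK at 0.026 and TYMS at 0.032. That fit called 1923 of the 14219 genes tested. RRM1 at 0.02 ± 0.16, RRM2 at -0.09 ± 0.14, TK1 at 0.11 ± 0.20, DCK at -0.13 ± 0.18, SAMHD1 at 0.06 ± 0.18 and RRM2B at -0.29 ± 0.23 had 95% intervals that included 0. In the same libraries 4 of the 5 G1/S markers were called lower in CCNB1-positive cells, between -3.37 for CCNE2 and -1.51 for CDC6, and CDT1 at -0.45 was not (adjusted p = 0.17).

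Under selumetinib the fractions differed for 7 of the 9 members, all higher in CCNB1-positive cells, against 13.8% of all genes called higher. The median difference was 1.95 over the 9 members and 0.02 over all genes. These comparisons share the treated libraries with the responses above. TK1 differed by 2.87 ± 0.20 (adjusted p = 8.8e-08), a 7.33-fold higher level, RRM2 by 2.63 ± 0.14 (adjusted p = 8.1e-09), 6.20-fold, and DTYMK by 2.32 ± 0.14 (adjusted p = 2.7e-08), 5.01-fold. TYMS differed by 2.31 ± 0.15 (adjusted p = 4.2e-08), RRM1 by 1.95 ± 0.16 (adjusted p = 6.1e-07) and DCK by 1.01 ± 0.18 (adjusted p = 0.0015).

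DUT differed by 0.50 ± 0.14 (adjusted p = 0.026), 1.41-fold. This call was lost with no filter on low values and with only the groups compared (adjusted p = 0.051 in each). It was also lost without treated CCNB1-negative replicate 2 (adjusted p = 0.12), treated CCNB1-positive replicate 1 (adjusted p = 0.17) or treated CCNB1-positive replicate 2 (adjusted p = 0.077). RRM2B differed by -0.17 ± 0.23 (adjusted p = 0.62) and SAMHD1 by 0.30 ± 0.18 (adjusted p = 0.25).

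Ratios of genes that act together were read within each library, where the scaling cancels. They are log2 ratios of reads, not per length, so their changes can be read and their absolute values cannot be taken as molar. RRM2 over RRM2B was 4.95 and 4.59 in untreated and 1.58 and 1.64 in treated CCNB1-negative cells. It was 4.85 and 5.10 in untreated and 4.03 and 4.79 in treated CCNB1-positive cells. The treated CCNB1-negative libraries thus stood alone, with the mean ratio changed by -3.16, against -0.56 in CCNB1-positive cells.

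SAMHD1 over RRM2, an enzyme that degrades deoxynucleotides over one that makes them, was -4.37 and -4.27 in untreated and -1.29 and -1.19 in treated CCNB1-negative cells, and -4.07 and -4.26 against -3.63 and -3.50 in CCNB1-positive cells. The mean changed by 3.08 and by 0.60, and this ratio shares its RRM2 values with RRM2 over RRM2B. RRM2 over RRM1, the subunits of the same enzyme, changed far less, by -0.41 in the negative and 0.39 in the positive fraction. Its values were 0.76 and 0.36 in untreated and 0.15 and 0.14 in treated CCNB1-negative cells, and 0.51 and 0.38 against 0.74 and 0.93 in CCNB1-positive cells.

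TYMS over DUT, consecutive steps, was 1.03 and 0.87 in untreated and -1.17 and -1.10 in treated CCNB1-negative cells, so more reads came from DUT than from TYMS only in these treated libraries. In CCNB1-positive cells it was 1.03 and 1.13 untreated and 0.48 and 0.87 treated. TYMS over TK1, the synthesis and salvage routes to dTMP, was -0.29 and -0.07 in untreated and -0.85 and -0.19 in treated CCNB1-negative cells, which overlapped. In CCNB1-positive cells it was -0.67 and -0.58 untreated and -1.34 and -0.82 treated, with no overlap. The mean changed by -0.33 and by -0.45. TK1 over DCK was 3.31 and 3.04 in untreated and 2.17 and 1.54 in treated CCNB1-negative cells, and 3.48 and 3.34 against 3.68 and 3.76 in CCNB1-positive cells. These ratios are descriptions and were not tested.

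**Figure D4:**
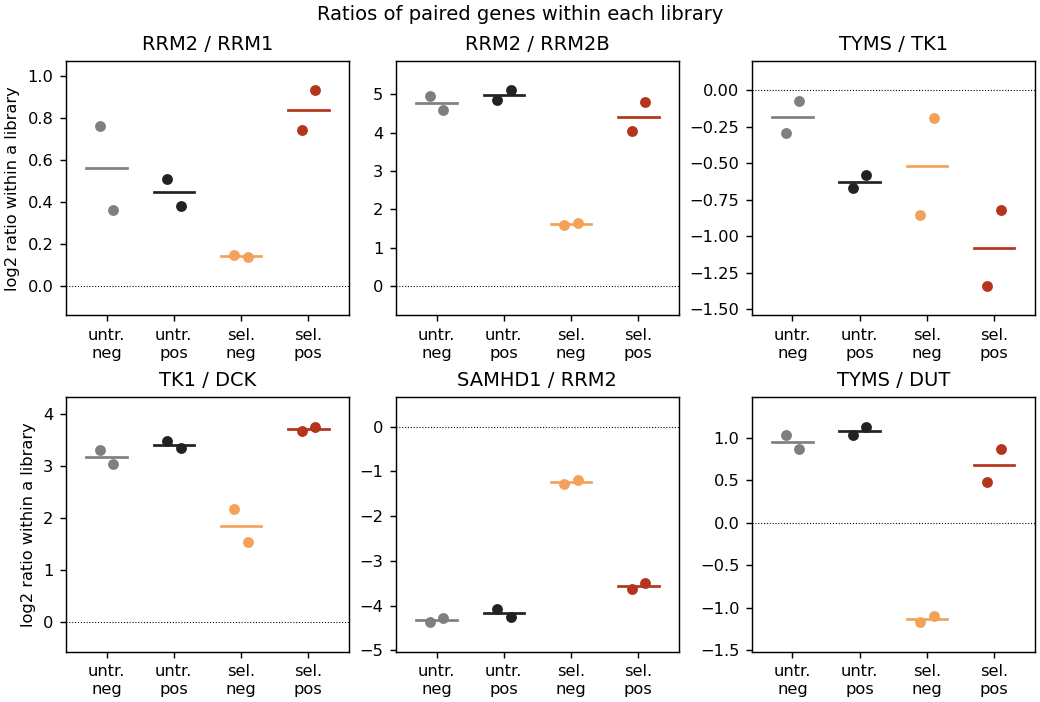
Log2 ratio of reads of 6 gene pairs within each library (points) with group means (lines), on axes of different range. untr., untreated; sel., selumetinib; neg, CCNB1-negative; pos, CCNB1-positive. RRM2 over RRM2B lay at 1.58 and 1.64 in the treated CCNB1-negative libraries and between 4.03 and 5.10 elsewhere.

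Other genes of deoxynucleotide metabolism were read from a list of 38, of which 35 were tested, with CMPK2, ADA and NT5M below 1 RPM. In CCNB1-negative cells 25 fell with selumetinib, 5 rose and 5 did not pass, with a median of -0.78. Of all genes tested there, 35.8% fell and 38.2% rose, with a median of 0.05. In CCNB1-positive cells 19 fell, 6 rose and 10 did not pass, with a median of -0.46. Of all genes, 27.3% fell and 38.0% rose in that fraction, with a median of 0.17. By role, the 5 enzymes that remove damaged or unwanted nucleotides fell in CCNB1-negative cells, and 4 of 5 fell in CCNB1-positive cells. Of the 5 genes of the folate cycle that serves TYMS, 4 fell in the negative and 3 in the positive fraction. Of 8 mono- and diphosphate kinases, 6 fell and 1 rose in each fraction.

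The steepest falls of the list in CCNB1-negative cells were NME1, a nucleoside diphosphate kinase, at -2.89 ± 0.19, and MTHFD2, a mitochondrial folate enzyme, at -2.86 ± 0.16. DCTPP1, which hydrolyses dCTP and its modified forms, was at -2.82 ± 0.19, and the nucleoside carrier SLC29A1 at -2.74 ± 0.17 (adjusted p between 5.3e-09 and 3.1e-08). In CCNB1-positive cells they were NME1 at -2.08 ± 0.19, MTHFD1, a cytosolic folate enzyme, at -2.02 ± 0.14, PNP, purine nucleoside phosphorylase, at -1.96 ± 0.18 and SLC29A1 at -1.79 ± 0.17 (adjusted p between 1.7e-07 and 1.4e-06). In that fraction these differences were larger than that of any of the 9 members. NME1 has a near-identical neighbour, NME2, so the split of reads between them is uncertain.

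A few genes rose. SLC25A36, a mitochondrial pyrimidine nucleotide carrier, rose by 0.91 ± 0.17 and 1.16 ± 0.17, and the pyrimidine nucleotidase NT5C3A by 0.65 ± 0.15 and 0.52 ± 0.15 in CCNB1-negative and CCNB1-positive cells.

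TK2, the mitochondrial thymidine kinase, was called at 0.58 ± 0.24 in CCNB1-negative cells (adjusted p = 0.043). That call was lost with quantile normalization (0.25), with limma-voom (0.51), and without untreated replicate 2 (0.29), treated replicate 1 (0.66) or treated replicate 2 (0.51) of that fraction. In CCNB1-positive cells the catabolic enzymes CDA and TYMP rose by 1.87 ± 0.53 (adjusted p = 0.0069) and 1.52 ± 0.38 (adjusted p = 0.0033). Both were low, with log2 values between 2.94 and 5.81 for CDA and between 4.38 and 6.53 for TYMP over the 8 libraries. The CDA value was 1.02 (adjusted p = 0.10) without untreated CCNB1-positive replicate 2 and 1.72 (adjusted p = 0.051) without treated CCNB1-positive replicate 1. Quantile normalization gave 0.51 for CDA and 0.32 for TYMP, with both calls lost.

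The responses differed between fractions for 7 of the 35, all with a positive interaction, which was called for 4.99% of all genes. The count was 4 without untreated CCNB1-negative replicate 2, untreated CCNB1-positive replicate 1 or replicate 2 of either treated group, and 13 with the pair of fractions as a block. NUDT1, which hydrolyses oxidized purine nucleotides, had the largest at 1.82 ± 0.26 (adjusted p = 4.1e-04), with falls of -2.07 ± 0.18 in CCNB1-negative and -0.25 ± 0.18 (not called) in CCNB1-positive cells. CCNF, the cyclin F subunit of the ubiquitin ligase that targets RRM2, followed at 1.43 ± 0.30 (adjusted p = 0.012), and was lost without replicate 2 of either treated group (adjusted p = 0.057 and 0.051). MTHFD2 was at 1.12 ± 0.22 (adjusted p = 0.0071).

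In untreated cells 2 of the 35 differed between fractions, against 2.87% of all genes in either direction. Both act in protein turnover during the cell cycle and neither is an enzyme of nucleotide supply. CCNF was higher in CCNB1-positive cells by 2.14 ± 0.22 and FZR1, the activator of the anaphase-promoting complex that targets TK1 and RRM2, by 1.58 ± 0.17 (adjusted p = 3.3e-05 and 6.7e-05). Under selumetinib 12 were higher in CCNB1-positive cells, against 13.8% of all genes. NT5C3A was the 1 called lower, at -0.46 ± 0.15 (adjusted p = 0.040), against 7.87% of all genes. These 13 calls became 8 without replicate 2 of either treated group.

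**Figure D5:**
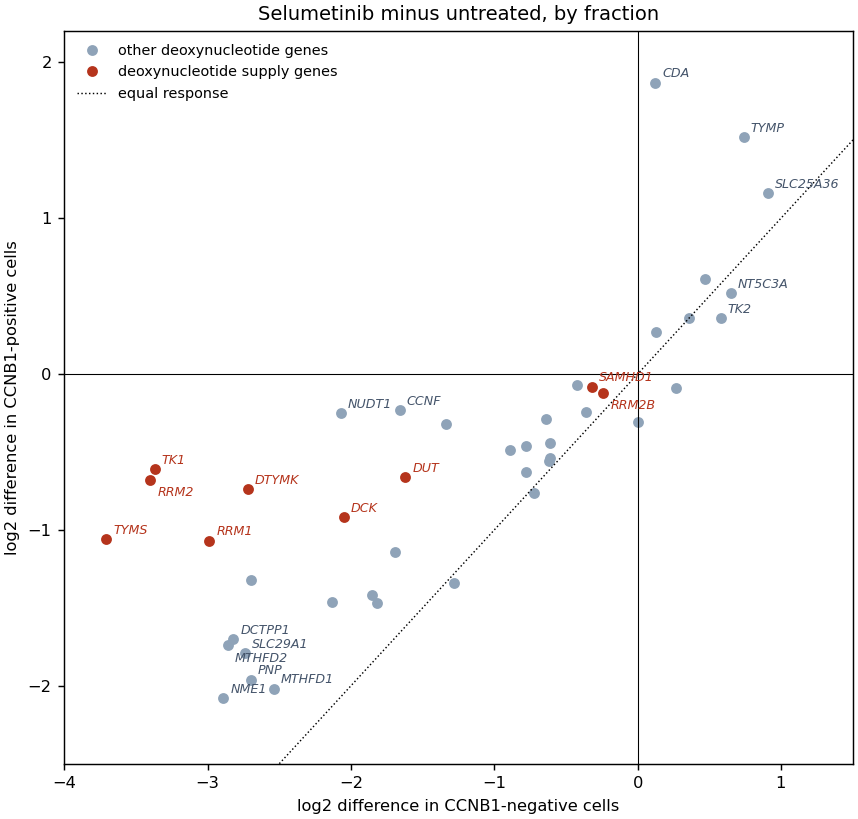
Log2 difference, selumetinib minus untreated, in CCNB1-negative (horizontal) against CCNB1-positive cells (vertical) for the 9 genes (red) and 35 other genes of deoxynucleotide metabolism (blue). The dotted line marks equal responses. RRM2, TK1 and TYMS lay at -3.37 or below on the horizontal axis and at -1.06 or above on the vertical axis, while NME1 and MTHFD1 fell by over 2 in both.

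The genes whose profile was most like each member's were found by the root mean square difference of log2 values centred on their own mean over the 8 libraries. For RRM1 they were LRR1 (0.07), SUV39H2 (0.12) and GLA (0.12), for RRM2 MYBL2 (0.16), RAD54L (0.19) and ORC6 (0.19), and for TYMS RFC3 (0.07), CENPH (0.17) and ORC6 (0.18). For TK1 they were ZWINT (0.16), ASF1B (0.18) and SUV39H1 (0.20), and for DTYMK CENPN (0.10), NCAPG2 (0.11) and RNASEH2A (0.13). The nearest 3 of DCK included ACAT2 (0.10) and GLO1 (0.10), and those of DUT included KDELR3 (0.07) and RUSC1 (0.09). RRM2B was nearest to CA13 (0.11), PALB2 (0.11) and PLS3 (0.12), and those of SAMHD1 included PPIG (0.06) and FOXRED1 (0.06).

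How many genes lay within 0.25 of a member differed widely. It was 6 for TK1, 13 for TYMS, 14 for RRM2, 15 for DTYMK and 21 for RRM1, whose ranges over the libraries were between 3.22 and 3.85. It was 475 for DCK and 979 for DUT, with ranges of 2.16 and 1.80, and 1074 for RRM2B and 1770 for SAMHD1, with ranges below 1. Among the members, RRM2 lay 0.23 from TYMS, 0.25 from TK1 and 0.26 from DTYMK, RRM1 lay 0.26 from DTYMK, and DCK lay 0.28 from DUT. RRM2B lay 0.32 from SAMHD1 and 1.38 from RRM2, the subunit it can replace.

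Reads of overlapping genes cannot be told apart where strand was not used, and strand use is not given for this table in the sources used here. TYMS overlaps ENOSF1 on the opposite strand, a gene with 1932 to 3347 reads that rose by 0.82 in the negative and 0.69 in the positive fraction, while TYMS fell. TYMS also overlaps the antisense RNA TYMSOS, with 13 to 183 reads, which was at -2.99 (adjusted p = 2.3e-07) in CCNB1-negative and at 0.22 (adjusted p = 0.47) in CCNB1-positive cells. DCK overlaps MOB1B on the same strand, with 300 to 660 reads and rises of 1.35 and 0.68, against 94 to 605 reads for DCK. SAMHD1 overlaps TLDC2 (2 to 14 reads) and RRM1 overlaps RRM1-AS1 (0 to 2 reads). RRM2B, with 93 to 207 reads per library, SAMHD1, with 156 to 342, and DCK rest on the fewest reads, whereas the highest counts of RRM1, RRM2, TYMS, TK1 and DTYMK were between 3855 and 6489.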

How the data were processed

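The data are mRNA-seq values of 8 HT29 libraries, 2 in each of 4 groups. The authors used Trim Galore 0.5.0 for trimming, HISAT2 2.1.0 for mapping to GRCh38 and SeqMonk for quantification, and deposited log2 values scaled to total reads. These values are log2 reads with every library brought to the size of the largest, with genes that have no read at the log2 of 0.9 reads. The annotation release and strand handling are not given in the sources used here. Groups follow the sample descriptions, which the titles contradict. Whole reads could be recovered for 100% of genes that had any (tolerance 0.01 read). They carry no molecular identifiers, so depth bounds counting error only.

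Genes averaging 1 RPM or more were tested with limma 3.58.1 (R 4.3.3) with a mean-variance trend on the deposited values, 1 coefficient per group, because the values are not counts. p-values were adjusted by Benjamini-Hochberg, with a threshold of 0.05. The fit was run on simulated data with few changed genes and independent noise. These differ from the real data, so that run checks the code and not the error rate here. The authors' own test was DESeq2. The members and lists were chosen with earlier results of these data known. Named genes are all members, the 4 called list genes with the largest rise and fall in each response, up to 4 list genes called in the interaction, the 3 nearest profiles of each member, and check genes. The values of 5 genes this rule names are not reported here. FZR1 and genes overlapping members were named after their values were seen, and levels over canonical transcripts were added after seeing the data. Gene models are from GENCODE release 44 (99.3% of identifiers matched) and promoters from RefSeq on GRCh38.p14, which held 8 of the 9 members. RRM2B's promoter and all protein sequences were not used here. Alternatives were other filters, scalings, thresholds, a pseudocount, limma-voom, blocks and leaving out each library. Python 3.11.15, pandas 2.3.3, numpy 2.4.6 and matplotlib 3.10.9 were used for the rest.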

Additional observations from a re-analysis of the deposited data

Results flagged for a closer look

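The response to selumetinib differed between the sorted fractions for 7 of the 9 genes, against 4.99% of all genes tested with a positive interaction. The interaction in limma was the log2 response in CCNB1-positive minus that in CCNB1-negative cells, and it shares its treated libraries with the contrast of the treated fractions. The values were 1.92 for RRM1, 2.72 for RRM2, 2.64 for TYMS, 2.76 for TK1, 1.98 for DTYMK, 1.14 for DCK and 0.96 for DUT. The DCK and DUT calls were lost on leaving out 1 of 3 libraries each. All 7 keep their sign under either reading of the contradictory labels. Groups of 2 libraries are too small to look for single outlying libraries.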

How the results depend on the processing

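Over the settings tried, the 9 members' values kept direction and side of the threshold in 739 of 778 cases, 20 lost and 6 gained a call, and 13 turned sign. The list genes named kept theirs in 316 of 337. No value was called in a setting that turned its sign. For RRM1 between untreated fractions they were -0.03 with quantile normalization and as low as -0.14 without 1 library, a range of -0.14 to 0.18, and for RRM2 the range without 1 library was -0.19 to 0.00. RRM2B turned to 0.07 (CCNB1-negative) and 0.13 (CCNB1-positive) with scaling to nuclear genes without MALAT1, and without 1 library it ranged from -0.41 to 0.17 in CCNB1-positive cells and from -0.46 to 0.12 between treated fractions, and its interaction to -0.15 with quantile normalization and between -0.17 and -0.01 without 1 library. SAMHD1 in CCNB1-positive cells turned to 0.17 with the same scaling and ranged from -0.24 to 0.08 without 1 library. The cause was not tested.

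Same-numbered libraries deviated together only for fractions of 1 treatment (correlations 0.35 and 0.43, others -0.09 to 0.08). Numbers were therefore not taken to pair treated with untreated libraries. The main fits also left the fractions of 1 treatment unpaired, and fits with that pair as a block are given beside them. The replicate block changed no call of a member. With the pair of fractions as a block, 3 members rather than 0 were called between untreated fractions, 13 rather than 7 list genes in the interaction, and over all genes 1923 rather than 408, 6671 rather than 3077 (treated fractions) and 3850 rather than 758 (interaction). At an adjusted p under 0.01 these were 217, 1338 and 426, with 2 list genes in the interaction. Quantile normalization gave 244 between untreated fractions. Without 1 library the counts ranged from 224 to 455, 1156 to 4279 and 489 to 1806, the lowest without untreated CCNB1-positive replicate 2, treated CCNB1-negative replicate 2 and untreated CCNB1-negative replicate 2, and list genes fell to 8 of 13 between treated fractions and to 4 of 7 in the interaction. The share of calls that were higher was 58.1% in CCNB1-positive responses, 47.5% with quantile normalization and 71.8% with scaling to nuclear genes, and for the other comparisons 51.6%, 47.5%, 63.6% and 93.5% against 63.1% (nuclear), 64.8%, 47.9% and 70.9% (quantile). Nuclear scaling moved the median of all genes from 0.05 to 0.36 and from 0.17 to 0.42 in the responses. At a mean of at least 10 RPM, RRM2B was not tested.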
